A study of Mus musculus with 4 samples.

Results

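The loci that record the choice between the CD4 and CD8 lineages were examined in ATAC-seq peak lists of mouse CD4+ T cells, at the genes Cd4, Cd8a, Cd8b1 and Zbtb7b. All peaks that lay within the mm10 records of these 4 genes or within 40 kb of them were taken from the 4 lists and merged where they shared at least 1 base, which gave 55 regions of the 93679 in all. Cd8a and Cd8b1 are neighbours and share 1 locus, so the regions fall into 3 loci: 20 regions at Cd4, 20 at Cd8 and 15 at Zbtb7b. Within these loci the regions were taken by position alone, whatever their values.

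The cells came from spleens of wild-type male C57BL/6 mice, 7 weeks old, and were sorted as naive by high CD62L, low CD44 and no CD25. Every culture received anti-CD3 bound to the plate (5 µg/ml) with anti-CD28 in solution (1 µg/ml), and, as cytokines, 10 ng/ml of IL-2 and 5 ng/ml of TGF-β1 for 48 h, a mixture that steers naive cells toward induced regulatory T (iTreg) cells. Cells without IL-4 gave 2 libraries, and cells with 15 ng/ml of IL-4 gave 2. The study describes the ATAC-seq samples as pooled and biologically independent, so a library may not stand for 1 mouse.

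CD4 and CD8 are the coreceptors by which T cells recognise MHC class II and class I molecules, and a mature T cell keeps 1 of the pair. Cd4 is driven by a proximal enhancer upstream of the gene, E4P, and is shut off in CD8 cells by a silencer in its first intron, to which RUNX proteins bind. Cd8a and Cd8b1 encode the α and β chains of CD8 and are driven by a group of stage-specific enhancers, E8I to E8VI, most of which lie between the genes. Zbtb7b encodes ThPOK, the zinc finger protein that commits thymocytes to the CD4 lineage and represses CD8 genes, and it is itself held off in CD8 cells by a RUNX-bound silencer upstream of its distal promoter. ATAC-seq marks open chromatin by transposase insertion, and an open silencer or enhancer is not by that fact an active one.

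The sequences below are the centres of the regions over the elements on which the results turn, read 5′ to 3′ from GRCm38 (mm10) on the strand of the gene they belong to. Each is 300 bases long and overlaps no annotated exon. In the pair from Cd4 intron 1, capitals mark the RUNX motif TGTGGT on either strand, with the second of them chosen after the data were seen as the 300 bases of that region with the most matches. Capitals in the E4P and E8I sequences mark the E box CANNTG, to which the E proteins Tcf3 and Tcf12 bind. In E8II they mark a 43-base probe that RefSeq annotates as bound by Patz1 (MAZR), a repressor of Cd8 in thymocytes. The last sequence holds neither the RUNX motif nor an E box and has no capitals.
Cd4 intron 1, centre (chr6:124885572-124885871, minus strand): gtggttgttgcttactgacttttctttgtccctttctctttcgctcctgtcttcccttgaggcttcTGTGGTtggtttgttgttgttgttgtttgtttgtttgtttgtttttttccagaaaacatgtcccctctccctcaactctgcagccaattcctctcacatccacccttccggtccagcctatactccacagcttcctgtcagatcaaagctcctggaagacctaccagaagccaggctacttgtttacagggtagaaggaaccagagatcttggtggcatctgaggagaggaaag
Cd4 intron 1, RUNX motifs (chr6:124885992-124886291, minus strand): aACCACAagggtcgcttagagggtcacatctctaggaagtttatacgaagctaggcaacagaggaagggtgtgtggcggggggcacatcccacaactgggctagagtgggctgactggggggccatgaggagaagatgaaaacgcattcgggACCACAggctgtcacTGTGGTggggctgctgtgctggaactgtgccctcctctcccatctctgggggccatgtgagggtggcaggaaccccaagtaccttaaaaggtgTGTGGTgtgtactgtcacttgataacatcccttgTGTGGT
Cd4 E4P stretch (chr6:124900771-124901070, minus strand): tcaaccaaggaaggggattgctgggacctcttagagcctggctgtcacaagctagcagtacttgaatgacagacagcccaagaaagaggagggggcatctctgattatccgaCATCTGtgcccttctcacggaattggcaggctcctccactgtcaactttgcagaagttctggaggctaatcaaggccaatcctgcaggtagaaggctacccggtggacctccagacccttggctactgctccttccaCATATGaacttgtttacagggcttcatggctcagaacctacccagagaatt
E8II (chr6:71341294-71341593, plus strand): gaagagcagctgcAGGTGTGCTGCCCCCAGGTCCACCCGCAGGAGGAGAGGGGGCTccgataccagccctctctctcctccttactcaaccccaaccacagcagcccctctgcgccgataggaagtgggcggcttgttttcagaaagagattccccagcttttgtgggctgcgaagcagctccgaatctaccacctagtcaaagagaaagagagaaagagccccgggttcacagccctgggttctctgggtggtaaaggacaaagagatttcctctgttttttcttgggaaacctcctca
E8I (chr6:71352122-71352421, plus strand): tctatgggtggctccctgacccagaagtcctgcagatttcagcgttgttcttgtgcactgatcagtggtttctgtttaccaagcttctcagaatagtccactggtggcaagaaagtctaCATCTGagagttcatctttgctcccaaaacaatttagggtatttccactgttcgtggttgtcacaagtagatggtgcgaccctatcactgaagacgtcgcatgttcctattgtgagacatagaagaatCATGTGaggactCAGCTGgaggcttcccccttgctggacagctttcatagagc
Zbtb7b silencer stretch (chr3:89396450-89396749, minus strand): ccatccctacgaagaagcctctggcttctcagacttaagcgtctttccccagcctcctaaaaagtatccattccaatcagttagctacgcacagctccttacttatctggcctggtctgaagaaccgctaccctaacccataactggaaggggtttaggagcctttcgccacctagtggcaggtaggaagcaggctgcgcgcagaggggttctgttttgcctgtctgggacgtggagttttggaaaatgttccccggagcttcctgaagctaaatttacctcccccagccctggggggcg

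The lists differ in length, and this touches each count that follows. They held 77064 and 56645 peaks for replicates 1 and 2 without IL-4, against 78670 and 67743 with it. Of the merged regions, 81.2% and 58.9% were called without IL-4 and 82.9% and 71.1% with it. Peak lists carry no read numbers, so the depth of each library could not be given, and the absence of a peak means only that MACS2 called none in that list. Start sites with a peak within 1 kb in all 4 libraries were found for 8 of 8 T cell genes (Cd3e, Cd3d, Cd3g, Cd247, Thy1, Cd2, Cd5 and Lck), 0 of 3 NK cell genes and 2 of 5 myeloid genes (Spi1 and Cd14), against 59.0% of 21774 protein-coding genes. Of the other NK cell and myeloid genes, Itgam had a start-site peak in 3 libraries and Klrd1 in 2, and Csf1r, Lyz2, Ncr1 and Klrb1c had none in any. The part of other cells in the values was not tested.

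Open chromatin was dense at the Cd4 and Zbtb7b loci and sparse at the Cd8 locus in every library. At the Cd4 locus (chr6:124824693-124928247), 120.8 and 93.1 bases per kb lay inside peaks in replicates 1 and 2 without IL-4, against 106.4 and 105.9 with it. The Zbtb7b locus (chr3:89337644-89433673) had 90.4 and 78.8 bases per kb without IL-4 and 98.1 and 85.9 with it. At the Cd8 locus (chr6:71282788-71419171) the values were 41.8 and 12.1 without IL-4 and 37.7 and 33.1 with it. The whole genome had between 10.7 and 15.4 bases per kb, so the Cd4 locus stood at 6.91 to 8.68 times the density of its own library, the Zbtb7b locus at 6.08 to 7.35 times, and the Cd8 locus at 1.12 to 2.81 times.

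**Figure D1:**
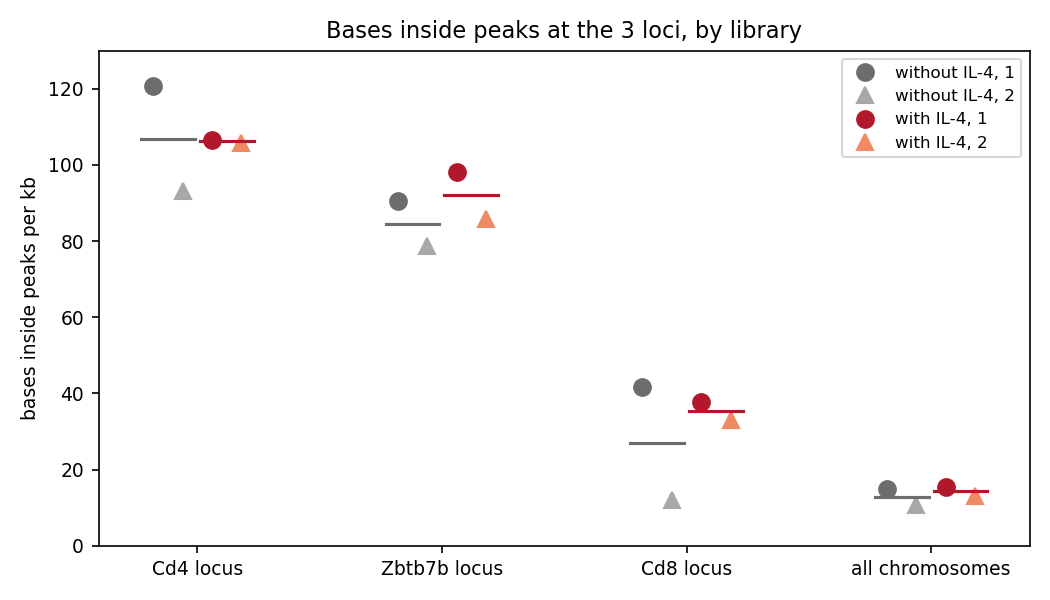
Bases inside peaks per kb at each locus and over all chromosomes, with 1 point per library (circles for replicate 1, triangles for replicate 2; grey without IL-4, red and orange with IL-4) and a line at the mean of each condition. The Cd4 locus lies between 93.1 and 120.8 bases per kb and the Cd8 locus between 12.1 and 41.8, with the lowest Cd8 value in replicate 2 without IL-4.

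The Cd4 locus exceeded the Cd8 locus by 75.4 ± 5.64 bases per kb (SD, n = 4), with the same sign in 4 of 4 libraries. It exceeded the Zbtb7b locus by 18.2 ± 9.36 bases per kb, and the Zbtb7b locus exceeded the Cd8 locus by 57.2 ± 8.03, each in 4 of 4. An exact two-sided sign-flip test over the 4 libraries gave p = 0.125 for each of these 3 pairs (adjusted p = 0.125), the smallest value that 4 libraries allow. The loci also differ in their neighbours. Of 7 other protein-coding genes that start inside the Cd4 locus, 6 had a start-site peak in all 4 libraries, as did 7 of 9 at the Zbtb7b locus, while the only such gene at the Cd8 locus, Gm1070, had none in any. Within the gene records alone, without the flanks that hold most of these neighbours, the Cd4 locus exceeded the Cd8 locus by 33.6 bases per kb (exact sign-flip p = 0.125).

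**Figure D2:**
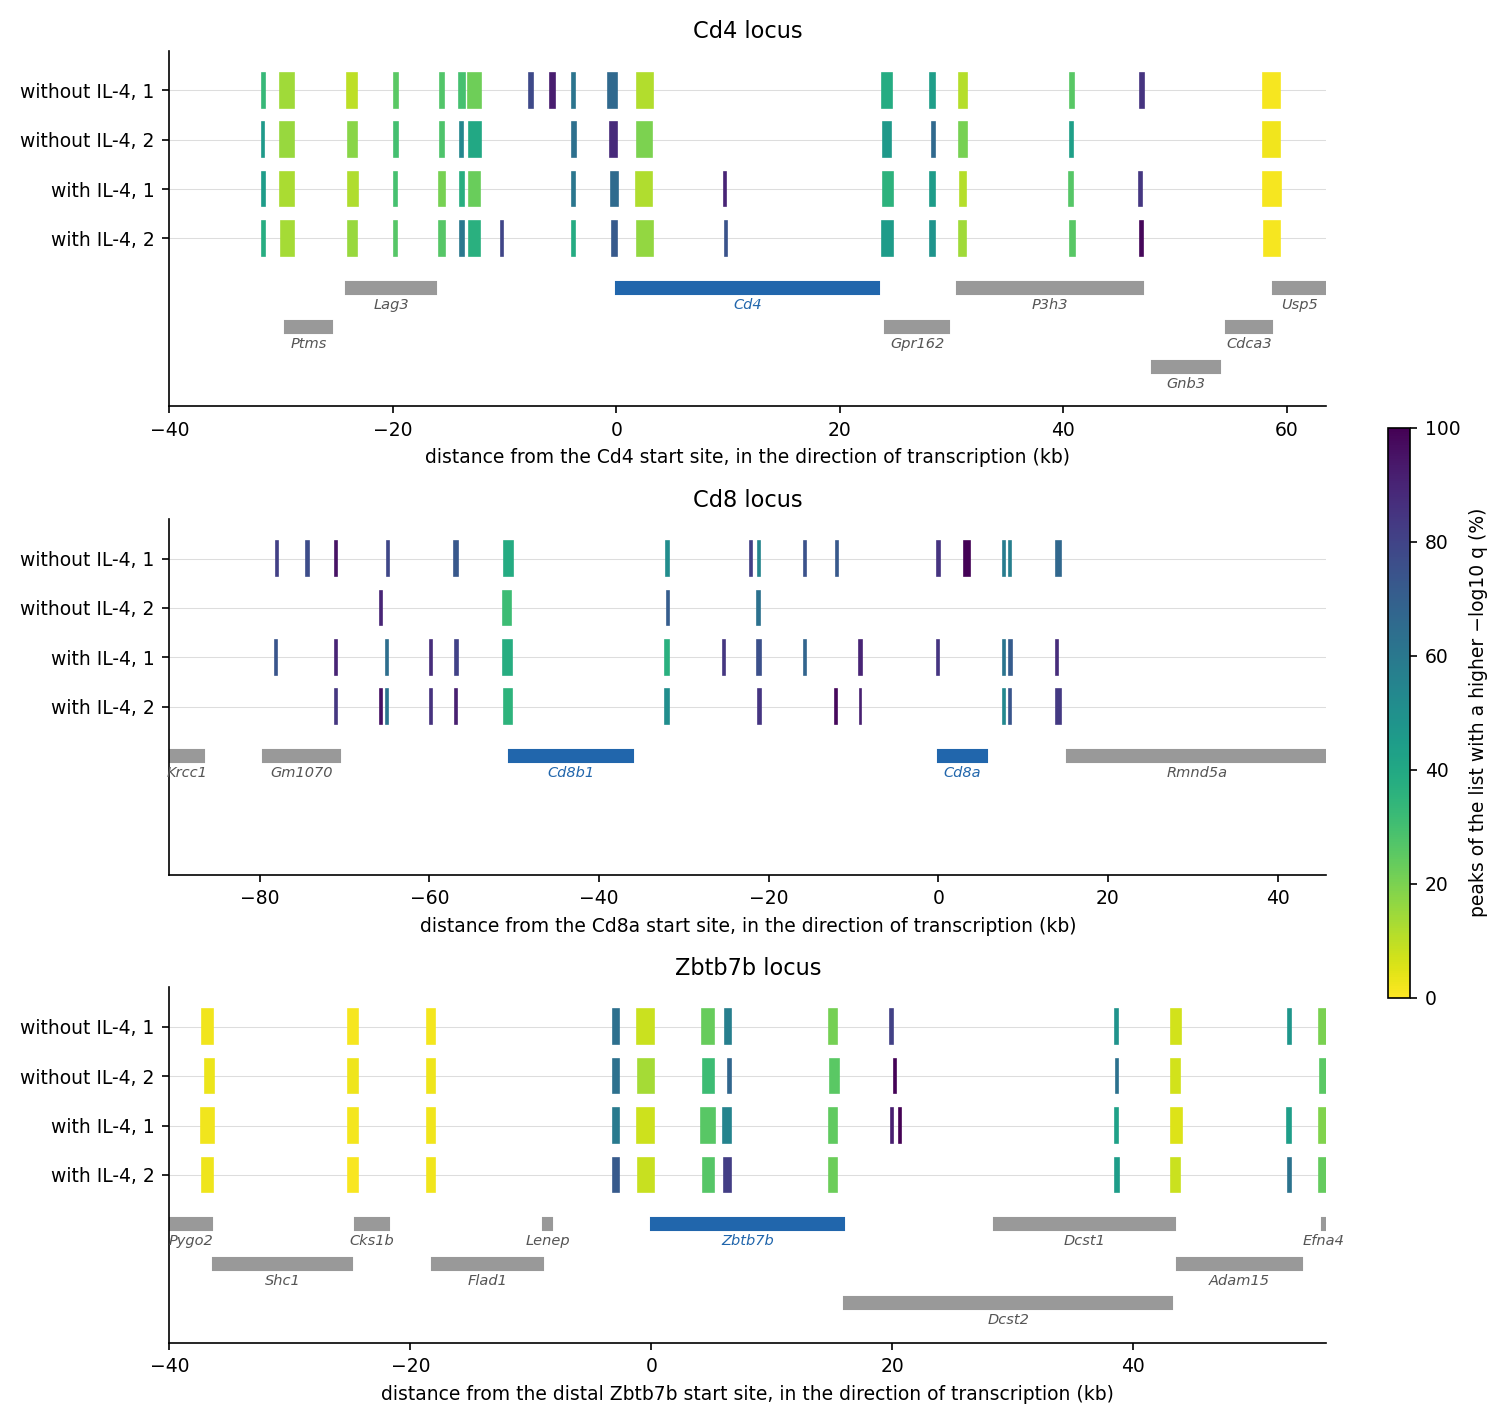
Peaks of the 4 libraries at the 3 loci, drawn to scale against distance in kb from the Cd4, Cd8a or distal Zbtb7b start site, with the genes of interest in blue and their protein-coding neighbours in grey. Each bar is the extent of peaks in 1 library, coloured by the percent of that list's peaks with a higher −log10 q, so yellow bars are the most significant. The Cd8 locus has 3 regions called in all 4 libraries, against 15 at Cd4 and 11 at Zbtb7b.

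Calls were also more even at Cd4 and Zbtb7b. All 4 libraries shared 15 of the 20 regions at the Cd4 locus (75.0%), 11 of the 15 at Zbtb7b (73.3%) and 3 of the 20 at Cd8 (15.0%), against 51.0% of the merged regions of the genome. Replicate 2 without IL-4, the shortest list, had 4 of the 20 Cd8 regions, where the others had 16, 15 and 13. Without that library 37 of the 55 regions were called in every remaining list, compared with 29 in all 4. The genome's share of 51.0% is for all 4 libraries, and none is given without that list. Of the 20 Cd8 regions, 6 were called in 3 libraries, 7 in 2 and 4 in 1, again with no share over the genome to set beside them.

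At the Cd4 gene itself, the most significant peak lay in intron 1, not at the start site. This intron was taken to hold the silencer and also a maturation enhancer of Cd4. Which of them the peak covers was not tested. Significance is given as a rank, the percent of peaks in the same list with a higher −log10 q, so that a low value is a strong peak. The region in intron 1 (chr6:124884992-124886451, 1460 bases, centred 2526 bases downstream of the start site) ranked at 11.4% and 19.9% in replicates 1 and 2 without IL-4 and at 12.04% and 16.1% with IL-4. Its −log10 q was 222 and 64.9 without IL-4 and 190 and 122 with it. It was 1 peak in 3 libraries, and in replicate 2 without IL-4 it was split into 2 peaks.

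The start site of Cd4 was open in all 4 libraries, with a peak of low significance and middling height. Its region (chr6:124888124-124888955) ranked at 66.3% and 88.0% without IL-4 and at 65.5% and 72.3% with IL-4, so the start-site peak was behind the intron 1 peak in each library. The gap was 58.2 ± 6.73 percentage points (SD, n = 4; exact sign-flip test, p = 0.125, adjusted p = 0.250 over 6 differences). Ranked by height instead of −log10 q, the start site stood at 38.5% and 56.5% without IL-4 and at 39.2% and 42.8% with it, and the gap was 30.3 ± 4.84 points, again in 4 of 4 libraries (exact sign-flip p = 0.125). These pairs of elements were chosen after their values had been seen.

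The intron 1 region held 6 matches to the RUNX motif TGTGGT, counted on both strands, and 5 of them lay within the 300 bases printed second above. A stretch of 300 bases with at least 5 matches was found in 259 of 93503 regions (0.277%), and in 17 of the 2358 regions that were at least as wide (0.721%). The number 5 was taken from the intron 1 region after its letters were seen, so these shares do not test whether it is unusual. The part of the region with the 5 matches was covered by a peak in all 4 libraries, which in replicate 2 without IL-4 was the smaller of the split pair. A match is a run of letters and was not measured as a bound site.

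The E4P enhancer was covered by a pair of regions in every library. Within the stretch from 14 to 12 kb upstream of the start site, the best peak ranked at 22.2% and 40.2% without IL-4 and at 22.8% and 36.4% with IL-4. The larger region (chr6:124900327-124901513) is centred 12673 bases upstream, and a smaller one (chr6:124901835-124902369) lies beside it, which ranked at 29.3% and 53.7% without IL-4 and at 37.3% and 59.8% with it. Replicate 1 was stronger than replicate 2 in both conditions, and the conditions overlapped. A region 15611 bases upstream (chr6:124903572-124904144), between E4P and Lag3, was stronger than the E4P stretch in 3 of 4 libraries, with ranks of 27.1% and 27.9% without IL-4 and 20.6% and 26.3% with it.

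The ranks of the conditions overlapped at each of the Cd4 elements. The rank of the intron 1 peak was 15.6 ± 6.01% without and 14.1 ± 2.86% with IL-4 (SD, n = 2 each; exact two-sided permutation test, p = 1). For the E4P stretch it was 31.2 ± 12.7% and 29.6 ± 9.59% (exact permutation p = 1), and for the start site 77.1 ± 15.4% and 68.9 ± 4.78% (exact permutation p = 0.667). With 2 libraries against 2, no such test can go below 0.333. Bases inside peaks over the whole locus were 12505 and 9637 without IL-4 and 11023 and 10965 with it. The mean difference, with minus without, was -77 bases (exact permutation p = 1), and it became 1357 bases without replicate 1 and -1511 bases without replicate 2 of the IL-4-free cells. Relative to the density of its own library, the locus stood at 8.12 and 8.68 times without IL-4 and at 6.91 and 8.04 times with it, which did not overlap. Scaled in this way the difference was -1293 bases (exact permutation p = 0.333, the smallest possible). Within the Cd4 gene record alone, unscaled, it was 382 bases, in the opposite direction (exact permutation p = 0.333). Of the 15 regions at the Cd4 locus that all libraries shared, 3 were ranked higher in both IL-4 libraries than in either without, and 0 lower. They are the region 15611 bases upstream, one 3789 bases upstream and that at the start of Ptms. In ranks among the regions shared by all 4 lists, none of the 15 was higher or lower in this sense.

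**Figure D3:**
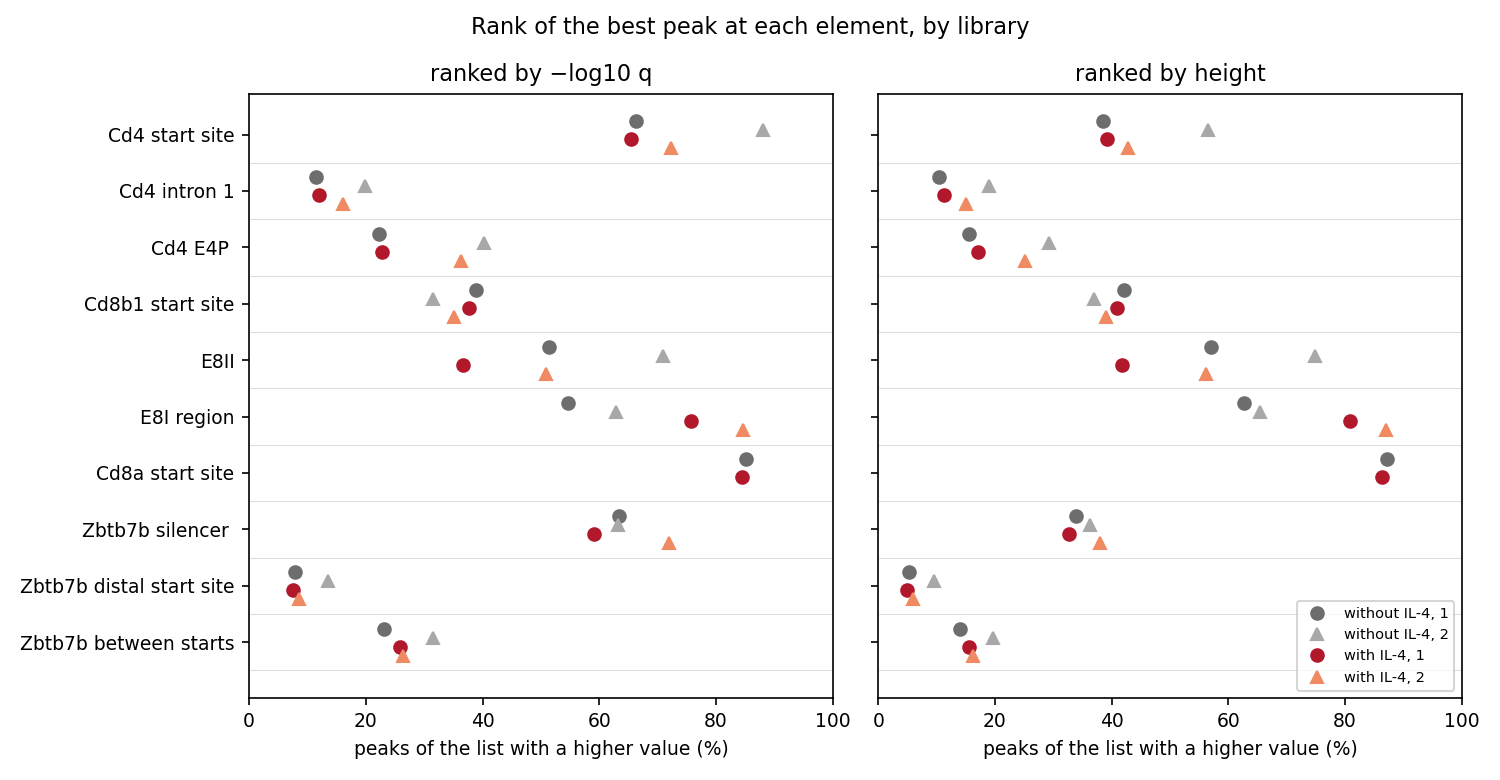
Rank of the best peak at each element in each library, by −log10 q (left) and by height (right), as the percent of peaks in the same list with a higher value, so that strong peaks lie to the left. For E8I the points are those of the region called in all 4 libraries. In replicate 1 with IL-4 this region (75.8%) was not the best E8I peak (67.7%). Circles are replicate 1 and triangles replicate 2, in grey without IL-4 and in red and orange with it; an element without a peak in a library has no point. The intron 1 peak of Cd4 lies at 11.4% to 19.9% by −log10 q and the Cd4 start site at 65.5% to 88.0%.

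At the Cd8 locus, the gene for the β chain had an open start site and the gene for the α chain barely did. The region at the start of Cd8b1 (chr6:71322100-71323236), which also holds the start of the noncoding gene Gm38828, was called in all 4 libraries. It ranked at 38.8% and 31.5% without IL-4 and at 37.7% and 35.2% with it. The region at the start of Cd8a (chr6:71373259-71373603) was called in replicate 1 of each condition, at 85.1% without and 84.4% with IL-4, and in neither replicate 2.

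By −log10 q the Cd8b1 start site outranked the Cd4 start site in 4 of 4 libraries of these CD4+ T cells, by 37.2 ± 13.6 percentage points (SD, n = 4; exact sign-flip test, p = 0.125, adjusted p = 0.250). By height it did so in 2 of 4, with a difference of 4.46 ± 10.5 points (exact sign-flip p = 0.625). The heights at Cd4 in replicates 1 and 2 were 76 and 27 without and 71 and 54 with IL-4, and at Cd8b1 67 and 46 without and 67 and 61 with it. The order of these start sites therefore depends on the measure of the caller. MACS2 can weigh a peak against the signal around it, and the Cd4 start site lies in the denser locus, but the part of the surroundings in this difference was not tested.

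Of the 6 annotated elements E8I to E8VI at the Cd8 locus, 2 held peaks. RefSeq places them from cloned fragments, and annotates E8V as a regulatory region and the others as enhancers. E8II and E8I had a peak in all 4 libraries, and E8III, E8IV, E8V and E8VI had none in any. E8III drives Cd8 in double-positive thymocytes, and E8I is best known for activity in mature CD8 cells. The stretch annotated for E8V also holds a pair of silencers and binding probes for GATA3, SATB1 and CUX1, and none of these was covered. The hypersensitive sites annotated for CD8+ cells within E8I were in part covered: the first had no peak in any library and the second a peak in replicate 1 of each condition. RefSeq gives the coordinates of these sites as approximate. The first is placed from position 71352996, and the E8I region called in all 4 libraries ends at 71352522, so a match between them is not excluded.

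**Figure D4:**
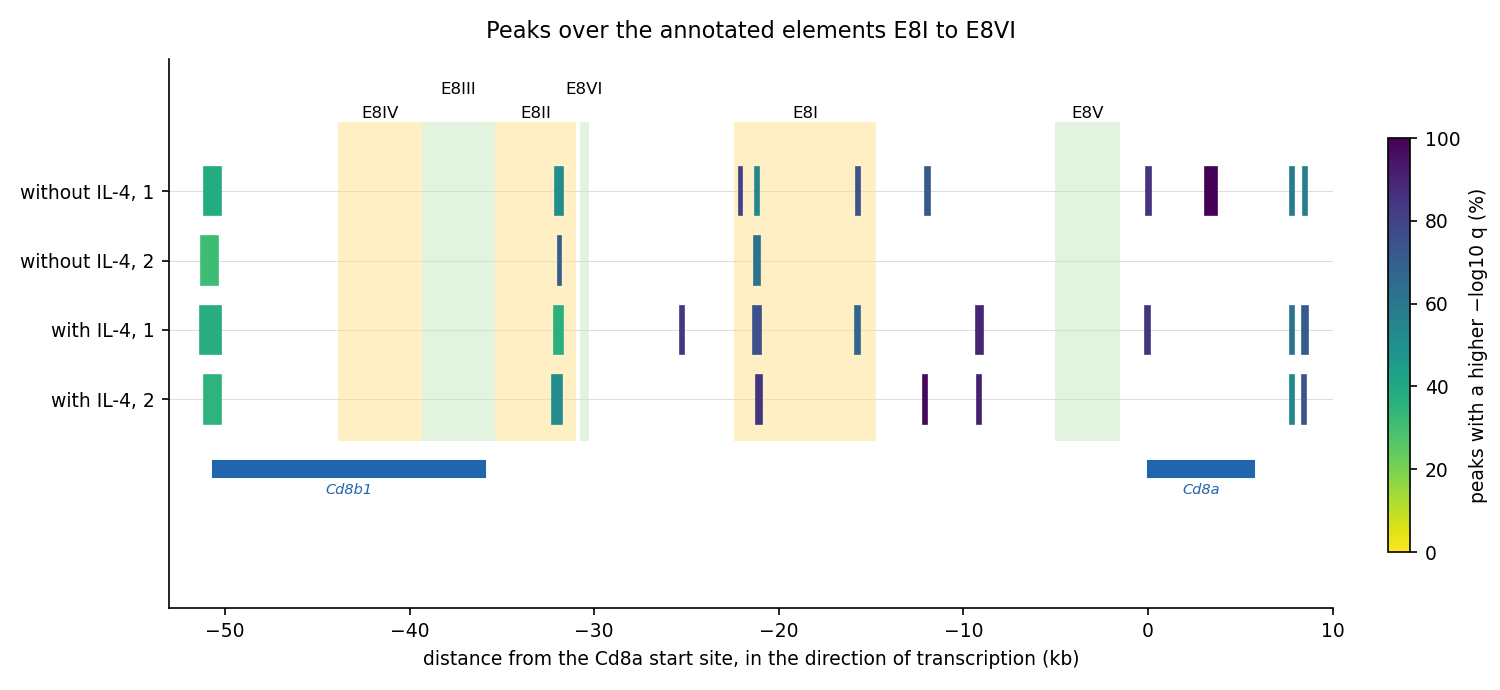
Peaks of the 4 libraries over the annotated elements E8I to E8VI, shaded, against distance in kb from the Cd8a start site, drawn to scale and coloured by the percent of the list's peaks with a higher −log10 q. E8II and E8I hold a peak in all 4 libraries, the other 4 elements in none, and the peak at the Cd8a start is present in 2 libraries.

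The E8II peak ranked higher in the libraries with IL-4. Its region (chr6:71341168-71341719) ranked at 51.4% and 70.9% without IL-4 and at 36.6% and 50.8% with it, so the groups did not overlap, though by a narrow margin of replicate 1 without and replicate 2 with IL-4. The −log10 q was 23.8 and 7.48 without and 40.7 and 21.4 with IL-4. The mean rank was 61.1 ± 13.8% without and 43.7 ± 10.0% with IL-4, a difference of -17.4 percentage points (exact permutation p = 0.333, the smallest possible). It was -7.69 points without replicate 2 and -27.2 points without replicate 1 of the IL-4-free cells, and -10.3 points without replicate 1 with IL-4. Among the 47767 regions called in all 4 libraries, so in lists of equal length, the ranks were 76.4% and 80.7% without and 58.9% and 69.5% with IL-4.

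The opposite was seen in E8I. The region called in all 4 libraries (chr6:71352021-71352522) ranked at 54.6% and 62.8% without IL-4 and at 75.8% and 84.7% with it. The mean was 58.7 ± 5.83% and 80.2 ± 6.31%, a difference of 21.5 points (exact permutation p = 0.333), and by height it was 19.9 points. Among the shared regions its ranks were 79.6% and 72.6% without and 94.7% and 95.7% with IL-4. In replicate 1 with IL-4 a second region of E8I (chr6:71357547-71357822) was stronger, at 67.7%, and this region was called in replicate 1 of each condition only. With the best E8I peak of each library taken, the difference was 17.5 points (exact permutation p = 0.333). It was 8.96 points without replicate 2 with IL-4.

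Non-overlapping ranks of this kind were common. By the rank within the whole list, 19.7% of the 47767 shared regions in the genome were higher in both IL-4 libraries than in either without, and 5.18% lower. At the 3 loci it was 5 of 29 higher (17.2%), namely the 3 at Cd4, E8II and 1 at the Zbtb7b locus in an intron shared by Dcst1 and Dcst2, and 1 of 29 lower (3.45%), that in E8I. By the rank among shared regions, 14.3% of the genome's were higher and 12.7% lower. At the 3 loci it was then 4 of 29 higher (13.8%), E8II and, at the Zbtb7b locus, the Dcst1 and Dcst2 intron, the distal Zbtb7b start and the start of Pygo2, and 3 of 29 lower (10.3%), that in E8I, the region between the Zbtb7b starts and the start of Flad1. The shares lie near those of the genome by either rank, and E8II and the E8I region were in the same direction by both.

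All 43 bases of the Patz1 probe in E8II lay inside the peak in both libraries with IL-4. In replicate 1 without IL-4 the peak took in 21 of the 43, and in replicate 2 without IL-4 it was 166 bases wide and did not reach the probe. Between the end of Cd8b1 and the start of Cd8a, 1361 and 537 bases lay inside peaks without IL-4 and 1924 and 1270 with it. Over the whole Cd8 locus there were 5698 and 1644 bases without IL-4 and 5142 and 4514 with it, or 3671 ± 2867 and 4828 ± 444 (SD, n = 2 each; exact permutation p = 1). The difference of 1157 bases rests on replicate 2 without IL-4, and without that library it is -870.

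Of the start sites of the 4 genes, the distal one of Zbtb7b had the most significant peak in each library, although the Cd4 locus had more bases inside peaks per kb. The region of this promoter (chr3:89393455-89394887) also holds the start of the noncoding gene Gm15417. It ranked at 7.93% and 13.4% without IL-4 and at 7.55% and 8.54% with it. A region between the distal and proximal starts (chr3:89388420-89389552), which itself holds an annotated start of a Zbtb7b transcript, ranked at 23.2% and 31.6% without and at 25.9% and 26.4% with IL-4. The proximal start (chr3:89387022-89387701) was weaker, at 57.3% and 67.0% without IL-4 and 54.8% and 81.6% with it.

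The stretch taken for the silencer of Zbtb7b, by its distance from the distal start alone, was also open, though less so than the promoter. The region in it (chr3:89396354-89396845), centred 2926 bases upstream of the distal start and inside an intron of the noncoding gene Gm15417, was called in all 4 libraries. It ranked at 63.3% and 63.2% without IL-4 and at 59.0% and 72.0% with it, and the conditions overlapped. By height the ranks were 33.8% and 36.4% without and 32.6% and 38.0% with IL-4. Over all its 492 bases the region held 0 matches to the RUNX motif TGTGGT.

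The ranks of the conditions within the lists overlapped at each of the Zbtb7b elements. The mean rank of the distal start was 10.7 ± 3.89% without and 8.05 ± 0.705% with IL-4 (SD, n = 2 each; exact permutation p = 0.667), and for the region between the starts it was 27.4 ± 5.93% and 26.2 ± 0.400% (exact permutation p = 1). In ranks among shared regions these 2 did not overlap: the distal start had 12.8% and 15.9% without and 12.4% and 12.1% with IL-4, and the region between the starts 37.29% and 37.25% without and 42.4% and 37.4% with it. By the rank within the list, the silencer stretch had 63.3 ± 0.0925% and 65.5 ± 9.19% (exact permutation p = 1). Bases inside peaks over the locus were 8685 and 7565 without IL-4 and 9423 and 8248 with it, a difference of 710.5 bases (exact permutation p = 0.667). It was -346 bases once scaled to the peak bases of each library, 123 without replicate 1 and 1298 without replicate 2 with IL-4, and 150.5 without replicate 2 and 1270.5 without replicate 1 of the other cells. A region over the last exons (chr3:89378120-89378921) ranked between 21.02% and 25.7% in the 4 libraries, while the strongest regions of the locus were those at the starts of Flad1, Cks1b and Pygo2.

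Few regions were particular to a condition. Of the 55, 3 (5.45%) were called in both libraries with IL-4 and in neither without, against 2.60% of the genome's regions, and 0 were called in both without IL-4 and in neither with, against 0.699%. The 3 were weak. The first lies in a Cd4 intron 9782 bases downstream of the start site (chr6:124878356-124878574) and ranked at 90.0% and 74.6% with IL-4. The second, in an intron of Gm38828 (chr6:71313503-71313792), ranked at 87.5% and 85.6%, and the third, 9132 bases upstream of Cd8a (chr6:71364109-71364481), at 90.0% and 91.2%. None of them was left in the upper 50% of the lists. Leaving out replicate 1 without IL-4 raised the count to 11 and leaving out replicate 2 with IL-4 raised it to 5, while regions called only without IL-4 came to 5 without replicate 2 of that condition and to 1 without its replicate 1. Another 4 regions were called in replicate 1 of both conditions only: the start of Cd8a, the second E8I region, one in an intron of Gm1070 and one in an intron of Dcst2. No share over the genome is given for these 4, or for the counts with a library left out.

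The letters of the regions were compared with those of all 93503 regions on the assembled chromosomes, in the 200 bases around each centre and on both strands. The RUNX motif TGTGGT was present in 16 of the 55 (29.1%), 6 at Cd4, 8 at Cd8 and 2 at Zbtb7b, against 21.4% of all regions. The E box CANNTG was found in 35 of 55, against 64.3%, the ETS motif ACTTCC in 9 of 55, against 17.1%, and the GATA motif AGATAA in 3 of 55, against 7.86%. A palindrome bound by STAT6, the factor that IL-4 activates, has TTC and GAA with 4 bases of any kind between them, and it was found in 2 of 55, against 5.84%. The control TTCNNNGAA, with 3 bases between, was found in 6 of 55, against 8.46%.

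The genes of the surrounding pathway were open throughout. The 22 genes were RUNX factors and their partner (Runx1, Runx3, Cbfb), other factors of T cell or thymocyte fate (Gata3, Tox, Myb, Bcl11b, Satb1, Tcf7, Lef1, Zbtb7a, Patz1, Eomes), E, ETS and Ikaros proteins (Tcf3, Tcf12, Ets1, Ikzf1), chromatin remodellers (Mta2, Chd4, Smarca4) and the signalling genes Socs1 and Lck. All 22 had a start-site peak in all 4 libraries, against 59.0% of protein-coding genes, and 0 were called in both libraries of 1 condition and neither of the other, against 0.450%. The median rank of the best start-site peak was 9.01% and 14.1% without IL-4 and 10.6% and 12.4% with it. Runx3, which silences Cd4 and Zbtb7b in CD8 cells, ranked at 1.82% and 5.98% without IL-4 and at 1.63% and 4.59% with it, ahead of every start site of the 4 lineage genes. Gata3, which favours the CD4 fate and which IL-4 induces in T helper cells, ranked at 7.74% and 9.56% without IL-4 and at 9.22% and 12% with it.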

How the data were processed

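Peaks were mapped to mm10 and called by the authors in each library without pooling, per the labels' processing notes with Bowtie2 2.2.5, MACS2 2.1.2 and bedtools 2.16.2. Adjustment for the transposase offset and removal of duplicates are not given in the sources used here. The deposited lists carry no header: the first value was read as −log10 of the q-value (lowest about 1.31) and the second as the height of the pileup signal, in whole numbers, neither scaled between libraries by the authors. Both were therefore ranked only within a list.

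Positions are counted from 1. Gene records and enhancers came from RefSeq on GRCm38.p6, and sequences were read with pysam 0.24.0. Merging, ranks and exact permutation tests were run in Python 3.11.15 with scipy 1.17.1, pandas 2.3.3 and numpy 2.4.6, and the merging was tested on simulated lists. Adjusted p-values are those of Benjamini and Hochberg over each set of comparisons. The members and lists were chosen with earlier results of these data known, and the E8 elements were added once the annotation was seen. RefSeq annotates no E4P, silencer of Cd4 or silencer of Zbtb7b, so these were taken as an intron or a distance from the start site. The text names the elements defined in this way, the regions particular to a condition and those ranked apart between conditions. Some marker genes of other cell types are not reported here.

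Alternatives kept the upper 50% of each list, made lists equal in length, required a reciprocal overlap of 50%, used flanks of 20 kb or none, ranked by height or among shared regions, left out each library, or took replicate numbers as a block. Replicates 1 without and with IL-4 deviated together (r = 0.499 across 47767 regions), which for 2 numbers does not establish pairs. With independence of the pools stated only in general, p-values measure the spread between these libraries.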

Additional observations from a re-analysis of the deposited data

How the results depend on the processing

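Of 135 alternative values, 106 kept their direction (38 of them with a size that changed by over 1.5 times), 20 turned their direction and 9 counts moved. Counts and the values between conditions with a library left out have no p, and no other p could go below 0.333 between conditions, 0.125 over 4 libraries or 0.25 over 3. The difference in bases inside peaks at the Cd4 locus (-77) was 395 in the upper 50% of the lists and 148.5 in lists of equal length. In the gene record alone it was 382 (exact permutation p = 0.333). It was -35 with flanks of 20 kb and -1293 once scaled to the peak bases of each library (exact permutation p = 0.333). That at the Cd8 locus (1157) was -113 in lists of equal length, -330.5 in the gene records alone and 294.5 in the upper 50%. That at Zbtb7b (710.5) was 236.5 in the gene record, 271 with flanks of 20 kb, 430.5 in the upper 50% and -346 once scaled. The scaling was chosen after seeing the data. The Cd4 locus exceeded the Cd8 locus by 70.6 to 84.6 bases per kb in the upper 50%, lists of equal length and flanks of 20 kb, and by 33.6 in the gene records alone. Regions called only with IL-4 (3) numbered 0 in the upper 50% of the lists, 1 in lists of equal length and 1 in the gene records. Regions called only without IL-4 (0) numbered 1 in lists of equal length, and those in all 4 libraries (29) numbered 7 in the gene records. Ranked among shared regions, the differences at Cd4 intron 1, the E4P stretch and the Zbtb7b region between starts were 0.365, 2.80 and 2.64 points. The cause of these changes was not tested, except that fewer peaks or bases enter the smaller sets.

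Leaving out each library in turn gave differences of -1511 to 1357 bases at Cd4, -870 to 3184 at Cd8 and 123 to 1298 at Zbtb7b, and 73.5 to 77.6 bases per kb between the Cd4 and Cd8 loci. Counts ranged from 3 to 11 only with IL-4, from 0 to 5 only without and from 29 to 37 in all 4 libraries. Rank differences ran from -19.1 to 2.60 points at the Cd4 start, -5.81 to 2.68 at intron 1, -10.6 to 7.37 at E4P, -2.39 to 4.95 at the Cd8b1 start, -5.39 to 0.112 at the distal Zbtb7b start, -5.40 to 2.99 between the Zbtb7b starts and -4.23 to 8.76 at its silencer stretch. Those at E8II (-27.2 to -7.69), the best E8I peak (8.96 to 26.0) and the stretch between the Cd8 genes (-20.5 to -6.32) kept their sign. With replicate numbers taken as a block, the mean differences, such as -77, 1157 and 710.5 bases, are those given by construction, and with p no lower than 0.5 the block says nothing of stability. Reads per library are unknown, so a missing peak is not shown to be closed chromatin.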
